A study of Rattus norvegicus with 84 samples.

Results

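The comparison asked how the mRNA cargo of extracellular vesicles (EVs) in rat plasma differed between day 10 and day 4 after stroke. It used 6 of the 84 samples in the series: the 3 plasma mRNA libraries of control rats at day 10 and the 3 of control rats at day 4, chosen by their labels. All were male wild-type Sprague-Dawley rats of 8 to 12 weeks with 90 min of transient middle cerebral artery occlusion (tMCAO), in which a blood vessel of the brain is blocked and then reopened. On day 3 after stroke the control rats received saline through the carotid artery, where the treated rats received human neural stem cells (hNSCs), so that day 4 was 1 day and day 10 was 7 days after the injection. Rats 1 to 3 were sacrificed at day 4 and rats 4 to 6 at day 10, and no rat was sampled at both days. For reference the text also gives 3 healthy rats without stroke or injection, 3 control rats at day 31, and hNSC rats with 3 per day. Every control rat had both the occlusion and the injection, so the effect of either alone on the change between days cannot be told apart. The labels name the fluid plasma, while their extraction text says serum.

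EVs are membrane-bound particles that cells shed into body fluids with a sample of their RNA. Much of the EV RNA in blood comes from blood cells, platelets, vessel walls and liver. Red cell precursors make large amounts of globin mRNA, synthesise heme in their mitochondria, lay down a spectrin skeleton and expel the nucleus. The resulting reticulocyte still carries mRNA, clears its organelles and releases EVs while it matures. In such a bulk sample, a change in the number of EVs from a cell type and a change in the mRNA per EV cannot be told apart.

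The 6 libraries held 26287675 to 39189752 counts. The annotated genes took 60.9, 64.1 and 75.3% of the counts in rats 1, 2 and 3 at day 4 and 55.1, 48.6 and 56.5% in rats 4, 5 and 6 at day 10, so the days did not overlap, with the remainder on unannotated transcripts assembled by the authors. The part of this share in the results was not tested. Levels are given as CPM, counts scaled to a common library size, and Pearson's r of log2 CPM between libraries of 1 group was 0.713 to 0.794. Means below carry the SD over 3 rats, CPM includes the TMM factor, which equalises the bulk of the genes between libraries, and "rose" or "fell" means an adjusted p under 0.05 together with more than 1.5-fold in edgeR's quasi-likelihood test. Hba1, Hba2 and Pf4 were among the 10 mRNAs with the highest FPKM, which is the level per transcript length, and the neuronal mRNA Snap25 had 0 counts in all 6 libraries.

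Of 14720 genes tested, 54 rose from day 4 to day 10 (0.367%) and 3 fell (0.0204%), while 1104 had an unadjusted p under 0.05, 3.55% of the tested genes higher and 3.95% lower. DESeq2 called 3.5% of 15809 genes with an adjusted p higher and 6% lower. The median log2 fold change of all tested genes was -0.06. The 3 libraries of day 10 lay above the 3 of day 4 for 5.36% of the tested genes, and for all 54 that rose, and below them for 5.43%. A fit of the 6 libraries alone kept 33 of the 54 calls; of the genes named below it ended those of Bnip3l, Cat, Cd52, Fzr1, Hbb-b1, Hbq1b, Il12rb2, Riok3, RT1-A2, Scml4, Slc43a1, Sptb and Ubb. Red cell genes made up a large part of the 54: 27 belonged to the 4 lists of red cell genes, which held 88 tested genes, and 0 of the 88 fell. The lists were chosen with earlier results of these data known, so this count is a description and not a test. At an unadjusted p under 0.05, 1 heme and iron gene and 1 membrane gene were lower (3.95% of all). DESeq2 fitted 92 genes of these lists and called 46 higher (3.5% of all) and 2 lower (6% of all). Of the 54, 7 genes had no count at day 4, and the other 47 rose between 3.19-fold and 432-fold.

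**Figure D1:**
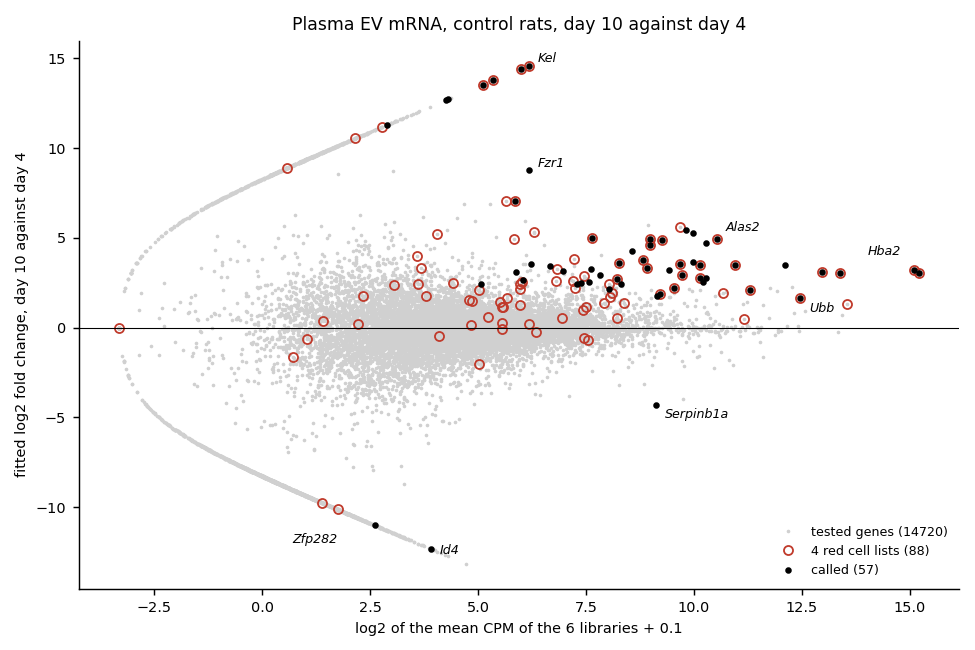
Each grey point is 1 of the 14720 tested genes, with the log2 of its mean CPM over the 6 libraries on the x axis and its fitted log2 fold change, day 10 against day 4, on the y axis. Red rings are the 88 tested genes of the 4 red cell lists and black dots the 57 called genes, of which 54 lie above 0 and 3 below.

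The hemoglobin genes together took 3.45, 2.63 and 1.73% of the annotated counts in rats 1, 2 and 3 at day 4. In rats 4, 5 and 6 at day 10 they took 14.4, 18.0 and 17.6%. The groups did not overlap: the mean was 2.61% ± 0.861 at day 4 and 16.7% ± 1.99 at day 10, a 6.40-fold difference of 14.1 percentage points. The exact two-sided permutation test gave p = 0.1, the smallest that 3 rats against 3 allow. Healthy rats lay between the days at 7.52% ± 3.28, and control rats at day 31 had 11.6% ± 5.44.

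Of 13 hemoglobin genes in the counts, 10 were tested and 9 rose, with a list median log2 fold change of 3.08. The α-globin gene Hba2, which with Hba1 encodes the α chains of adult hemoglobin, measured 10513, 8458 and 5690 CPM at day 4 and 68371, 65842 and 71257 CPM at day 10. The β-globin gene Hbb measured 2059, 1708 and 1308 CPM at day 4 and 14630, 15057 and 13754 CPM at day 10. Every day 10 library was thus several times above every day 4 library. Hba2 rose 8.33-fold (log2 3.06, SE 0.45, edgeR adjusted p = 0.00145) and Hbb 8.56-fold (log2 3.10, SE 0.46, edgeR adjusted p = 0.00148). Hba1 rose 9.13-fold, Hbb-b1 4.36-fold and Hba-a1 11.4-fold. The globin-like genes LOC100134871, LOC689064 and LOC103694857 rose 8.25, 11.3 and 6.81-fold, and LOC103694855 missed the threshold (log2 1.92, SE 0.43, edgeR adjusted p = 0.0576). Rat globin genes are near-identical copies among which the counting could split reads, so their single values are uncertain while their sum is less affected. The θ-globin gene Hbq1b was at 0, 1.36 and 1.21 CPM at day 4 and at 93.9, 133 and 119 CPM at day 10. It was thus close to absent at day 4, and rose 133-fold (log2 7.06, SE 1.35, edgeR adjusted p = 0.0156). With 1 rat left out at a time, Hbb-b1 lost its call in 5 of 6 fits (edgeR adjusted p up to 0.144), Hbq1b without rat 2 or rat 3 (up to 0.0667) and LOC103694857 without rat 2 (0.0584).

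**Figure D2:**
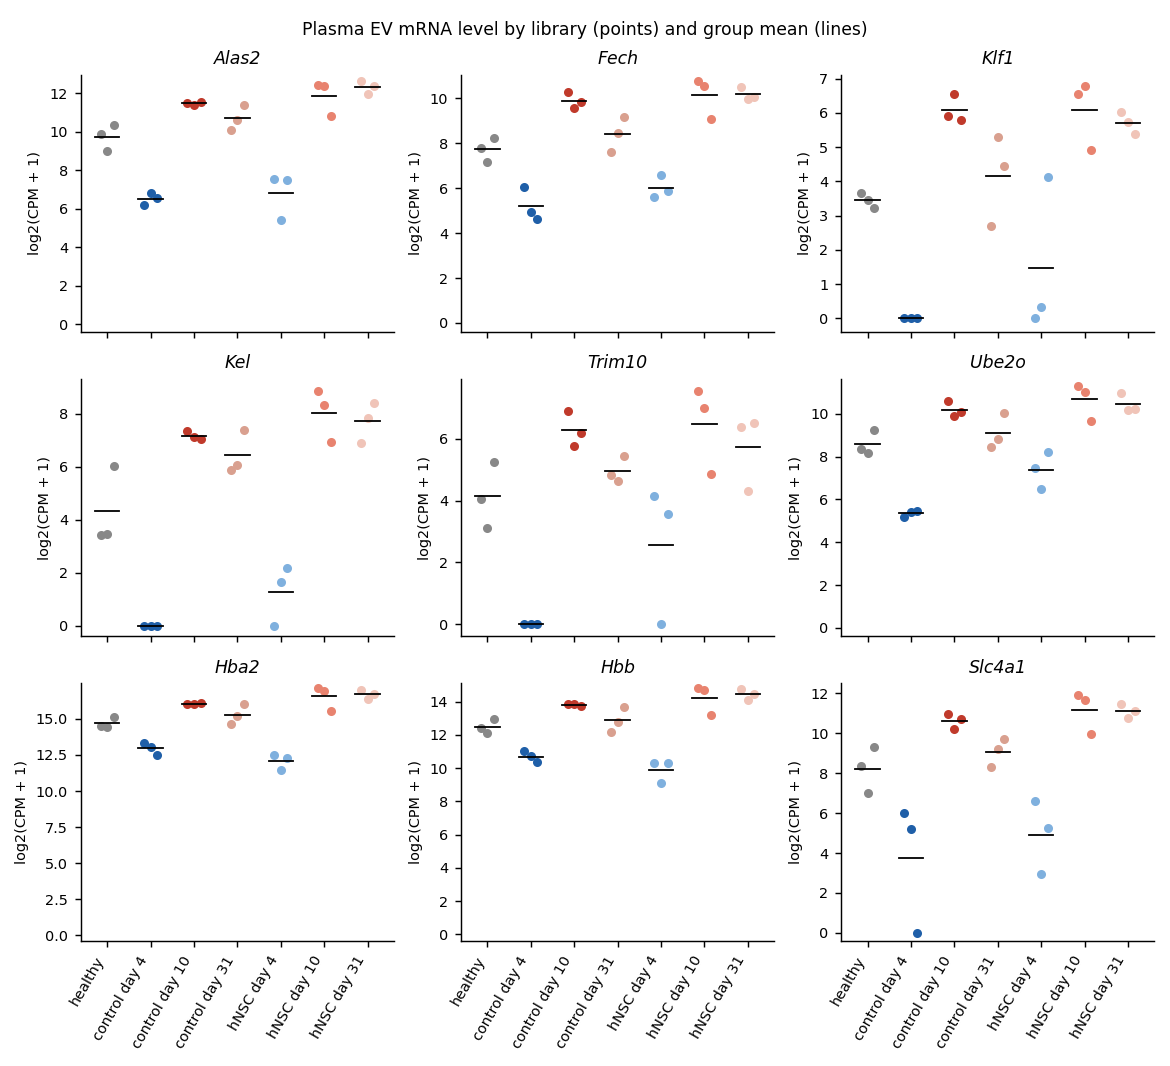
Each panel plots 1 red cell gene as log2(CPM + 1) in the 21 plasma mRNA libraries, with points for libraries and lines for the means of 3. Control rats at day 10 lie above those at day 4 for all 9 genes, the healthy rats lie mostly between, and Klf1, Kel and Trim10 are at 0 in every control library of day 4.

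Among the 24 tested genes of heme synthesis and iron supply, 3 rose and 0 fell, with a list median of 1.60. That median was 1.06 without rat 4 and 0.75 in limma on FPKM. Alas2, the enzyme of the rate-limiting first step of heme synthesis in red cell precursors, measured 72.6, 112 and 92.6 CPM at day 4 and 2883, 2701 and 3010 CPM at day 10. Fech, which inserts iron into the porphyrin ring as the last step, measured 65.0, 29.6 and 23.7 CPM at day 4 and 1249, 765 and 915 CPM at day 10. The days were far apart for both genes. The rats of each day were close together for Alas2, while Fech varied more at day 4 (39.4 ± 22.4 CPM). Alas2 rose 31.0-fold (log2 4.96, SE 0.58, edgeR adjusted p = 0.000272) and Fech 24.8-fold (log2 4.63, SE 0.56, edgeR adjusted p = 0.000272). Slc25a39, the carrier that brings glutathione into mitochondria, rose from 80.3 ± 6.19 to 516 ± 74.2 CPM. Of the enzymes between the ends of the pathway, these did not pass the test: Urod had a log2 fold change of 2.16 (SE 0.58), Cpox of 1.18 (SE 0.73) and Alad of -0.47 (SE 1.70). The mitochondrial iron importer Slc25a37 was at 19.6 ± 12.9 CPM at day 4 and 279 ± 101 CPM at day 10 (edgeR adjusted p = 0.0716). The iron-sulfur cluster gene Glrx5 was at 54.6 ± 11.4 and 251 ± 39.7 CPM without overlap and just missed the threshold (edgeR adjusted p = 0.05002). The iron store Fth1, among the 10 most abundant mRNAs, measured 5786, 5558 and 9599 CPM at day 4 and 33156, 6093 and 12184 CPM at day 10, so the days overlapped and rat 4 stood highest. Outside this list, Isca1 of iron-sulfur cluster assembly rose 5.41-fold, and Ncoa4, the receptor that delivers ferritin to lysosomes for iron release, rose 9.26-fold.

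Of 26 tested genes of the red cell membrane and its skeleton, 5 rose and 0 fell, with a list median of 2.29. Kel, the Kell blood group protein, was at 0 CPM in the 3 rats of day 4 and at 163, 139.6 and 130.2 CPM at day 10. It was thus seen at day 10 alone, at an even level. Set against the limit that a count of 0 allows (3 counts over the 3 libraries, counting error only), Kel was at least 3437-fold higher (edgeR adjusted p = 0.000471). The β-spectrin gene Sptb rose 30.8-fold, the spectrin-actin linker Add2 32.1-fold and protein 4.1, Epb41, 7.69-fold. The anion exchanger Slc4a1 (band 3), the most abundant red cell membrane protein, measured 62.9, 35.8 and 0 CPM at day 4 and 1981, 1200 and 1671 CPM at day 10. Its days were well apart, yet the spread at day 4 came with a wide error (log2 5.62, SE 1.38, edgeR adjusted p = 0.112), and without rat 3 it was called (log2 5.03, edgeR adjusted p = 0.0207). Epb42, the link between band 3 and the skeleton, was at 0.753 ± 1.30 and 99.7 ± 37.1 CPM (edgeR adjusted p = 0.112, and 0.0150 without rat 2).

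The list of erythroid regulators and maturation genes had 28 tested members, of which 10 rose and 0 fell, with a list median of 2.44. Klf1, the transcription factor that switches on adult β-globin, was at 0 CPM in the 3 rats of day 4 and at 59.1, 93.7 and 54.0 CPM at day 10. Trim10, a ubiquitin ligase of terminal red cell differentiation, was at 0 CPM in the 3 rats of day 4 and at 119, 53.5 and 72.8 CPM at day 10. Neither mRNA was seen at day 4 and each was seen in every rat at day 10. Klf1 was at least 1669-fold higher and Trim10 at least 1899-fold higher (edgeR adjusted p = 0.00512 and 0.00145). These limits cover counting error only. In hNSC rats Trim10 was at 0 to 16.8 CPM at day 4 and 28.2 to 188 CPM at day 10 (log2 3.63, SE 1.18). Hemgn, a nuclear factor of red cell precursors, rose from 46.9 ± 8.98 to 572 ± 180.0 CPM. Genes of the maturing reticulocyte rose too: Ube2o, which tags surplus proteins for removal, measured 35.5, 41.6 and 43.4 CPM at day 4 and 1535, 942 and 1078 CPM at day 10, which is 29.5-fold (log2 4.88, SE 0.57, edgeR adjusted p = 0.000272). Alox15, a lipoxygenase that attacks organelle membranes in reticulocytes, was in none of the lists and rose 43.3-fold, from 41.0 ± 16.6 to 1776 ± 1189 CPM. Bnip3l, the receptor for mitochondrial clearance, rose 3.69-fold and ubiquitin, Ubb, 3.19-fold. Of metabolic genes, Bpgm, which makes the allosteric effector of hemoglobin, rose 11.5-fold and carbonic anhydrase 2, Car2, 10.0-fold. Fam46c, listed by its current name Tent5c, rose 13.4-fold and Riok3 4.57-fold. The master regulator Gata1 was low, at 6.37 ± 5.54 and 36.2 ± 18.5 CPM (log2 2.51, SE 1.53, edgeR adjusted p = 0.617), and the α-globin chaperone Ahsp was at 42.8 ± 32.4 and 309 ± 134 CPM (edgeR adjusted p = 0.0670, and 0.0298 without rat 1). With 1 rat left out at a time, Ubb lost its call in 6 of 6 fits (edgeR adjusted p 0.0694 to 0.174), Bnip3l in 5 (up to 0.164), Riok3 in 4 (up to 0.109) and Alox15 without any 1 rat of day 4 (up to 0.0899).

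**Figure D3:**
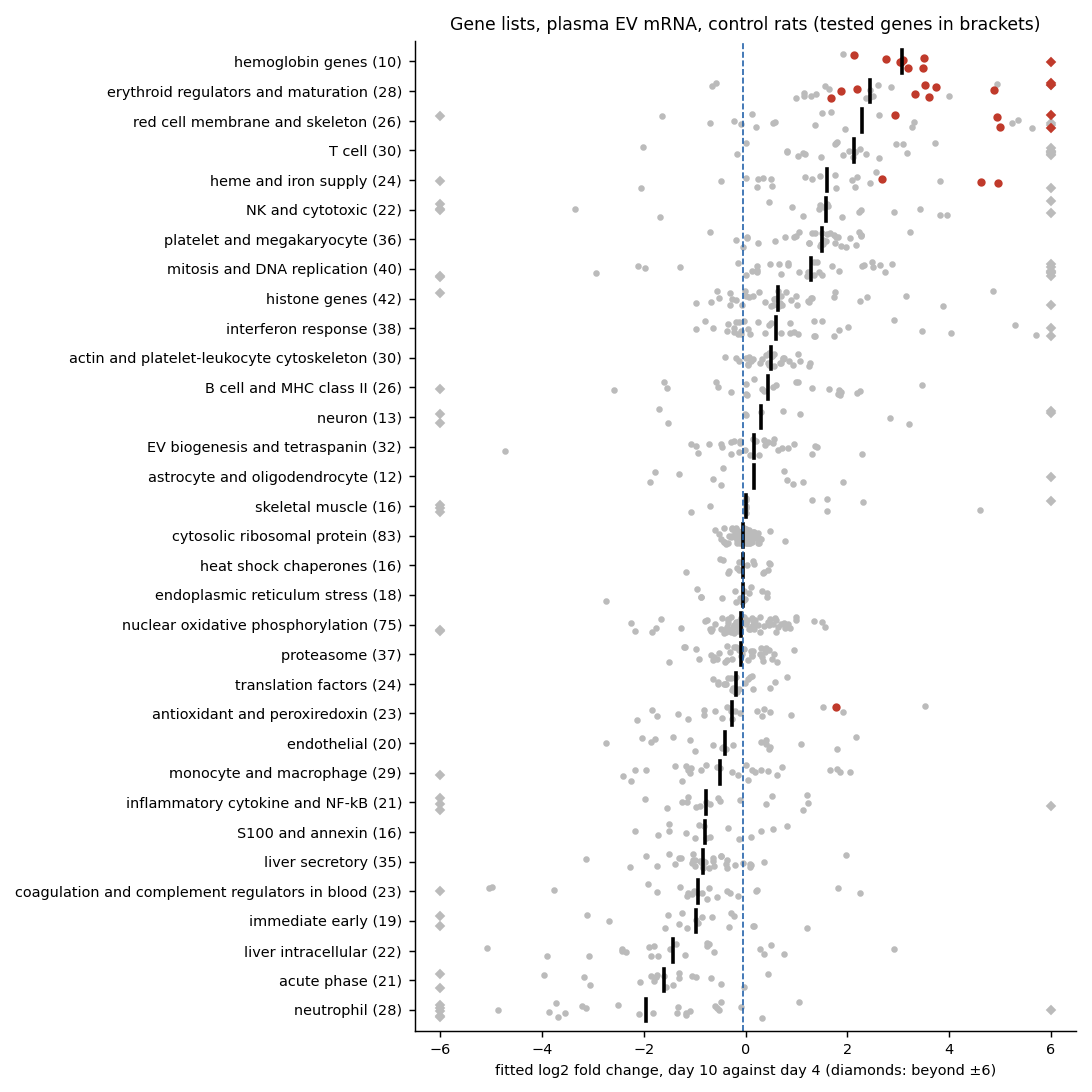
Each row is 1 gene list with its number of tested genes, each point a gene by its fitted log2 fold change, day 10 against day 4, and the black bar the list median; red points were called, diamonds lie beyond 6 in either direction and the dashed line is the median of all tested genes, -0.06. The red cell lists hold 27 called genes, the antioxidant list 1, and the neutrophil list has the lowest median, -1.95.

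Erythroid genes are classically bound by GATA1 and KLF1, so the start regions of the genes that rose were read from the RefSeq promoter table (build GRCr8, 250 bases before to 50 after the start). A region was found for 40 of the 54 genes. Of these 40, 11 (27.5%) held AGATAA or TGATAA on either strand, against 11.6% of 10359 tested genes with a region and 19.9% of all 27457. CCNCNCCC on either strand, a KLF1-type motif, was in 30 (75.0%), against 66.7% of the tested genes and 48.9% of all. The motifs were counted separately and a region could hold both. These shares are descriptions of letters in a short window and carry no test. Shown are the regions of 4 genes that rose and hold the GATA letters, Alas2 (chrX:22895200-22895499, + strand), Klf1 (chr19:40158602-40158901, - strand), Trim10 (chr20:1703420-1703719, - strand) and Hemgn (chr5:65485772-65486071, - strand), each 5′ to 3′ on the strand of the gene with the motif in capitals.
Alas2: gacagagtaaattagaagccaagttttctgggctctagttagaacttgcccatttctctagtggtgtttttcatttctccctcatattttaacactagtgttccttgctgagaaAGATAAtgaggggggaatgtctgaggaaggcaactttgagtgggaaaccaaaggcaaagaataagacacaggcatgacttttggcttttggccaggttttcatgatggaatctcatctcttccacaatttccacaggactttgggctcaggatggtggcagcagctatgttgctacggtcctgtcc
Klf1: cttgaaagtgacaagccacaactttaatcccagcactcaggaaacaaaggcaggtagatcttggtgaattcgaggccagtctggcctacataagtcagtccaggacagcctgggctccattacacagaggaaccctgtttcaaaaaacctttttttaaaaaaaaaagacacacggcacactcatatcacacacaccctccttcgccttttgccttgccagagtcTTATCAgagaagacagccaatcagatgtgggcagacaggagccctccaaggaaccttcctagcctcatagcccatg
Trim10: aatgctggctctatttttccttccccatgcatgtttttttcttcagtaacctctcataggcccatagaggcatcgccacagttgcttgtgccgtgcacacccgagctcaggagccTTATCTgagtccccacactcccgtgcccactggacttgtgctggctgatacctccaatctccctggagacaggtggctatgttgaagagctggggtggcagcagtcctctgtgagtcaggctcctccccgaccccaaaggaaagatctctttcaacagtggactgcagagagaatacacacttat
Hemgn: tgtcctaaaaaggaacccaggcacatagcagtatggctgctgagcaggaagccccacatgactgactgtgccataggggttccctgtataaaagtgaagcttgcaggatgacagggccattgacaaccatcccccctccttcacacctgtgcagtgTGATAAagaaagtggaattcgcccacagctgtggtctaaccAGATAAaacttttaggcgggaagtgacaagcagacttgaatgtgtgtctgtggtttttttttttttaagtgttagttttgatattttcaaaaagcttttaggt
Hemgn holds 2 such matches in this region, and the matches of Klf1 and Trim10 read on the opposite strand.

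The other 27 genes that rose lay outside the 4 red cell lists. Among them, Cdc25b, a phosphatase that drives entry into mitosis, measured 26.3, 69.3 and 56.8 CPM at day 4 and 2157, 1738 and 2034 CPM at day 10, a 38.9-fold rise (log2 5.28, SE 0.72, edgeR adjusted p = 0.00102). The cell cycle brake Fzr1, an activator of the anaphase-promoting complex, measured 1.03, 0 and 0 CPM at day 4 and 123, 192 and 118 CPM at day 10. Fzr1 was seen in 1 of 3 rats at day 4 and its rise was 432-fold (log2 8.76, SE 1.21, edgeR adjusted p = 0.00106). The RNA-binding protein genes Ybx3 and Rbm38 rose 11.1-fold and 12.7-fold, and Ybx3 reached 8151 ± 1849 CPM. Slc43a1, an amino acid transporter, was at 0 CPM in the 3 rats of day 4 and at 38.3, 50.3 and 26.2 CPM at day 10, at least 914-fold higher (edgeR adjusted p = 0.00158). Catalase, Cat, which breaks down hydrogen peroxide, was the 1 called gene of 23 tested antioxidant genes (list median -0.27) and rose 3.41-fold, from 256 ± 70.1 to 871 ± 72.2 CPM. Prdx2, the main peroxiredoxin of red cells, was at 249.9 ± 102 and 942 ± 59.0 CPM without overlap (log2 1.91, SE 0.50, edgeR adjusted p = 0.154). Cd52, a lymphocyte surface protein that was in none of the lists, rose from 24.8 ± 2.37 to 223 ± 102 CPM. The interleukin 12 receptor gene Il12rb2, also in none, was at 0 CPM in the 3 rats of day 4 and at 18.0, 35.8 and 63.6 CPM at day 10, at least 999-fold higher (edgeR adjusted p = 0.00660). Scml4 was at 0 CPM at day 4 and at 12.9, 23.9 and 7.46 CPM at day 10, at least 353-fold higher (edgeR adjusted p = 0.0378). These limits and that of Slc43a1 allow for counting error only. In hNSC rats Il12rb2 had means of 11.7 CPM at day 4 and 26.9 CPM at day 10 (log2 1.203). Scml4 had means of 11.98 and 17.3 CPM there (log2 0.525), and neither gene was called in hNSC rats. The healthy mean of Scml4, 24.6 CPM, was above its control mean at day 10, 14.7 CPM. With 1 rat left out at a time, Cat lost its call in 6 of 6 fits (edgeR adjusted p 0.0516 to 0.201), Scml4 in 5 (up to 0.155) and Cd52 in 4 (up to 0.131).

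In the same test 3 genes fell, and a fit of the 6 libraries alone called none of them (edgeR adjusted p = 0.1303 for Serpinb1a, 0.267 for Id4 and 0.594 for Zfp282). Serpinb1a, an inhibitor of neutrophil proteases, measured 511, 2270 and 406 CPM at day 4 and 60.7, 55.9 and 43.5 CPM at day 10, which is a log2 fold change of -4.32 (SE 0.75, edgeR adjusted p = 0.00531). Rat 2 stood far above the others at day 4, and the days did not overlap with or without it. Id4, an inhibitor of differentiation factors, measured 50.4, 10.2 and 28.4 CPM at day 4 and 0 CPM in the 3 rats of day 10, at least 539-fold lower (edgeR adjusted p = 0.00531). Zfp282, a zinc finger protein gene, measured 10.3, 15.9 and 9.70 CPM at day 4 and 0 CPM in the 3 rats of day 10. It was at least 218-fold lower (edgeR adjusted p = 0.00707). The limits of Id4 and Zfp282 allow for counting error only. In hNSC rats the log2 fold changes were -1.07 for Serpinb1a, -1.75 for Id4 and -0.47 for Zfp282, and none of the 3 was called. There Id4 had means of 27.4 CPM at day 4 and 8.14 CPM at day 10, and Zfp282 of 12.8 and 9.23 CPM.

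The lists of other blood cells each had 0 called members in edgeR, and the lists as wholes were not tested. The 36 tested platelet genes had a median of 1.505, which was 0.52 without rat 4, with 4 at an unadjusted p under 0.05, all higher (3.55% of all tested genes), and 0 called by DESeq2. The platelet chemokine Pf4, the fifth most abundant mRNA by FPKM, measured 935, 585 and 3688 CPM at day 4 and 18864, 1394 and 4283 CPM at day 10. Rat 4 alone held most of the day 10 level, and the groups overlapped (log2 2.24, SE 1.18, edgeR adjusted p = 0.591). The 30 T cell genes had a median of 2.13, or 0.75 in limma on FPKM. Of these genes 27 were above 0 (42.4% of all tested genes), 11 higher without overlap between days (5.36% of all), 10 higher at an unadjusted p under 0.05 (3.55% of all) and 8 called higher by DESeq2 (3.5% of all). The T cell receptor adaptor Lat was at 9.35 ± 6.70 and 72.8 ± 51.9 CPM and the defining Cd3e at 0 CPM in 5 of 6 libraries, with 8.08 CPM in rat 6. The 22 natural killer and cytotoxic genes had a median of 1.58, or 0.99 in limma on FPKM. Above 0 were 17 of them (42.4% of all tested genes), and 9 were higher without overlap between days (5.36% of all). An unadjusted p under 0.05 was reached by 3, all higher (3.55% of all). DESeq2 called 3 higher (3.5% of all) and 3 lower (6% of all), and 3 genes had counts at day 4 but none at day 10. Prf1, the pore-forming perforin, was at 0 CPM at day 4 and at 15.2, 10.4 and 45.1 CPM at day 10 (edgeR adjusted p = 0.151). The 26 B cell and MHC class II genes had a median of 0.45, from 0.08 without rat 1 to 1.04 without rat 3, and the B cell receptor subunit Cd79a measured 10.8 ± 7.88 and 8.79 ± 2.95 CPM.

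Neutrophil genes had the lowest median of all lists, -1.95 over 28 genes, which was -1.01 without rat 2. Of these genes 10 were lower without overlap (5.43% of all tested genes), 3 lower at an unadjusted p under 0.05 (3.95% of all), and DESeq2 called 3 lower (6% of all) and 1 higher (3.5% of all). S100a9, a calcium-binding alarmin of neutrophils, measured 373, 1757 and 413 CPM at day 4 and 132, 167 and 299 CPM at day 10 (log2 -2.09, SE 0.79, edgeR adjusted p = 0.573). Its partner S100a8 measured 43.6, 323 and 78.9 CPM at day 4 and 0, 34.8 and 0 CPM at day 10 (edgeR adjusted p = 0.591, and 0.0306 without rat 5). Rat 2 stood highest at day 4 for both, as it did for Serpinb1a. The 29 monocyte and macrophage genes had a median of -0.49, from -0.85 without rat 5 to -0.25 without rat 2. Of these 29 genes 11 were above 0 (42.4% of all tested genes). Without overlap, 7 were lower (5.43% of all) and 1 was higher (5.36% of all). An unadjusted p under 0.05 was reached by 4, all lower (3.95% of all). Of the 29, the lysozyme gene Lyz2 was at 1139, 4719 and 1153 CPM at day 4 and at 306, 482 and 689 CPM at day 10. The lectin Lgals3 was at 469 ± 275 and 88.1 ± 33.1 CPM (log2 -2.41, SE 0.63, edgeR adjusted p = 0.163). Both genes were lower without overlap.

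Liver mRNAs varied widely between rats of the same day. Albumin, Alb, measured 6184, 16.8 and 9534 CPM at day 4 and 3338, 10717 and 2757 CPM at day 10, so that rat 2 held almost none of it. The protease inhibitor Serpina1 showed the same order of rats within each day, with 2807, 70.9 and 4004 CPM at day 4 and 618, 1456 and 578 CPM at day 10. The 35 liver secretory genes had a median of -0.83, the 21 acute phase genes of -1.61 and the 22 intracellular liver genes of -1.42, each with 0 called in edgeR and with 0, 2 and 0 called lower by DESeq2 (6% of all). These medians rested on single rats: the secretory one was 0.49 without rat 3 and -1.81 without rat 5, the acute phase one -0.50 and -2.54, and the intracellular one -2.67 without rat 5 and -0.95 without rat 6. The acute phase gene Orm1 measured 580.3, 9.35 and 1077 CPM at day 4 and 22.9, 154 and 6.56 CPM at day 10 (log2 -3.18, SE 1.61, edgeR adjusted p = 0.591). The liver-specific miR-122-5p in the miRNA libraries of the same rat numbers did not show a low rat 2: it was at 42110, 46236 and 96022 CPM at day 4 and 14086, 56689 and 23752 CPM at day 10.

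Most other lists stayed near the median of all genes. The 83 ribosomal protein genes had a median of -0.04, the 75 nuclear genes of oxidative phosphorylation of -0.08, the 37 proteasome genes of -0.10 and the 32 genes of EV biogenesis and tetraspanins of 0.16, which was -0.20 without TMM. Rplp1, a stalk protein of the large ribosomal subunit, measured 4689, 6183 and 6757 CPM at day 4 and 5151, 4593 and 5878 CPM at day 10 (log2 -0.17, SE 0.27). The 40 genes of mitosis and DNA replication had a median of 1.29, which was 0.59 without rat 4 and 0.84 without rat 6, with 5 higher at an unadjusted p under 0.05 (3.55% of all), and Mki67, a marker of dividing cells, measured 15.9, 37.8 and 12.0 CPM at day 4 and 187, 49.6 and 83.4 CPM at day 10 (log2 2.28, SE 1.11, edgeR adjusted p = 0.591). The 38 interferon response genes had a median of 0.60, which was 0.35 without rat 2, with 9 higher without overlap (5.36% of all) and 5 called higher by DESeq2 (3.5% of all). Rsad2, the antiviral enzyme viperin, measured 33.2, 21.7 and 0 CPM at day 4 and 1029, 859 and 976 CPM at day 10, an even and high level at the later day (log2 5.71, SE 1.34, edgeR adjusted p = 0.0752), and without rat 3 it was called (log2 5.12, edgeR adjusted p = 0.0181). Brain cell markers were low: 13 of 26 neuronal genes in the counts were tested (median 0.30), and the astrocyte filament Gfap was at 29.9, 0.542 and 0 CPM at day 4 and 2.87, 31.8 and 16.6 CPM at day 10. The other lists had 0 called genes in edgeR and medians from -0.98 for immediate early genes to 0.63 for histone genes.

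Healthy rats gave a reference for the levels. The mean of the 3 healthy rats lay between the 2 days for 53 of the 54 genes that rose. All 3 healthy rats were above all rats of day 4 for 50 genes (8.4% of all tested genes). They were below all rats of day 10 for 47 (3.64% of all). The 54 genes were chosen for a wide gap between these same days. Another group can fall inside that gap through the choice alone, so these counts cannot test the direction. Alas2 was at 504 to 1297 CPM in healthy rats, Hba2 at 22138 to 35751 CPM and Klf1 at 8.31 to 11.7 CPM. In the same model, day 4 against healthy had 1 gene higher and 9 lower, and day 10 against healthy had 0 called, with 825 genes at an unadjusted p under 0.05. The contrasts share libraries with the comparison of days, so they are not separate evidence.

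The hNSC rats gave the same comparison in other rats. There, 70 genes rose (0.476%) and 0 fell, with 442 at an unadjusted p under 0.05. All 54 genes that rose in control rats had a log2 fold change above 0 in hNSC rats (54.2% of all tested genes), 49 without overlap between days (6.69% of all), with medians of 3.39 in control and 3.64 in hNSC rats. The 41 genes that rose in both were 75.9% of the control list and 58.6% of the hNSC list. Alas2 rose by a log2 fold change of 4.96 in either (hNSC SE 0.58, edgeR adjusted p = 0.000103), and Hba2 by 3.06 in control and 4.57 in hNSC rats (hNSC SE 0.48, edgeR adjusted p = 6.14e-05). The hemoglobin share in hNSC rats was 1.49% ± 0.529 at day 4 and 22.4% ± 8.48 at day 10. A direct test of the difference between the changes called 1 of 14720 genes (0.00679%), Tpx2, and 838 had an unadjusted p under 0.05, 12 of them among the 54. The 13 genes called in control rats alone included Klf1, Trim10, Alox15, Hbq1b, Fzr1 and Il12rb2, and none of them was called in the test of the difference. Klf1 in hNSC rats was at 0 to 16.3 CPM at day 4 and 29.0 to 109 CPM at day 10 (log2 3.78, SE 1.39). RT1-A2, a class I histocompatibility gene, rose 5.34-fold in control rats, a call lost in 6 of 6 fits with 1 rat left out (edgeR adjusted p 0.0548 to 0.155), and had a log2 fold change of 0.17 (SE 0.45) in hNSC rats, where day 4 was already at 32.7 to 90.0 CPM. List medians of hemoglobin, heme and iron, membrane and regulator genes were 4.23, 2.03, 1.85 and 2.91 in hNSC rats and 3.08, 1.60, 2.29 and 2.44 in control rats. The platelet list had a median of -1.24 in hNSC rats against 1.505 in control rats (0.52 without rat 4), and the T cell list 0.50 against 2.13. For the neutrophil list the median was -0.33 in hNSC rats against -1.95 in control rats (-1.01 without rat 2). These differences between lists were not tested.

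**Figure D4:**
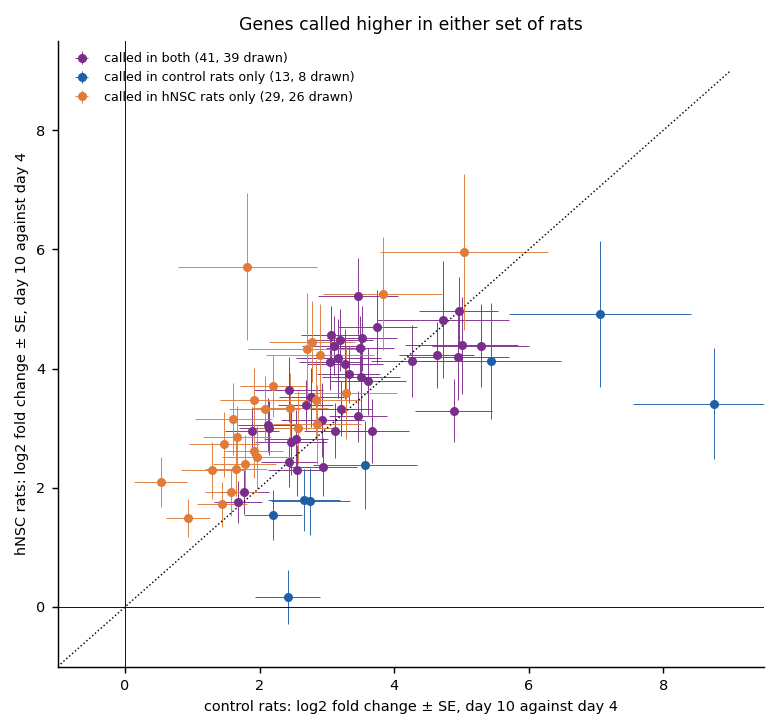
Genes called higher in control rats, in hNSC rats or in both are placed by their log2 fold change ± SE, day 10 against day 4, in control rats on the x axis and in hNSC rats on the y axis, up to the axis limit. Of the 41 genes called in both, 39 are drawn, 8 of the 13 called in control rats alone and 26 of the 29 called in hNSC rats alone; every gene drawn lies above 0 on both axes.

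In brain EVs of control rats the same contrast had 14515 genes tested and 0 called by edgeR (0%), with 898 at an unadjusted p under 0.05 and 93 called by DESeq2. Of the 54 genes, 48 were tested there, 29 had a log2 fold change above 0 (48.5% of all tested there) and their median was 0.119. The hemoglobin genes took 0.0249% ± 0.00922 of the annotated brain counts at day 4 and 0.0898% ± 0.0472 at day 10, without overlap (exact two-sided permutation p = 0.1, the smallest possible). Brain Hba2 measured 66.1, 119 and 69.5 CPM at day 4 and 342, 535 and 179 CPM at day 10 (log2 2.06, edgeR adjusted p = 0.106).

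The miRNA libraries carrying the same rat numbers gave a second readout of plasma EVs, with 410006 to 1122503 unique molecules each. Red cell precursors express miR-451 and miR-144 from 1 locus, and miR-16, miR-92a and miR-25 are abundant in mature red cells, though not restricted to them. Their mature sequences, from RefSeq (GRCr8) with the seed at bases 2 to 8 in capitals, show which share a seed.
miR-451-5p (chr10:63459585-63459606, + strand): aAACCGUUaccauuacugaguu
miR-144-3p (chr10:63459446-63459465, + strand): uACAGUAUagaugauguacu
miR-144-5p (chr10:63459409-63459431, + strand): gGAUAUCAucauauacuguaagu
miR-16-5p (chr2:155555343-155555364, + strand): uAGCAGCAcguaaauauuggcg
miR-92a-3p (2 loci): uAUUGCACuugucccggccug
miR-25-3p (chr12:22156652-22156673, - strand): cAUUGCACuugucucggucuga
miR-92a-3p and miR-25-3p carry the seed AUUGCAC, and the others have seeds of their own. Of 309 miRNAs tested, 0 were called by edgeR (0%), 73 had an unadjusted p under 0.05 and DESeq2 called 25; in hNSC rats edgeR called 2 (0.647%). The 7 tested red cell miRNAs all had a log2 fold change above 0 (45% of all miRNAs tested), from 0.49 to 1.40, with a median of 1.03 against -0.18 for all miRNAs, 3 higher without overlap (11.3% of all), and the smallest edgeR adjusted p was 0.197. miR-451-5p measured 737, 1295 and 261 CPM at day 4 and 1027, 1864 and 2203 CPM at day 10, so rat 2 at day 4 exceeded rat 4 at day 10 (log2 1.15, SE 0.82, edgeR adjusted p = 0.387). miR-16-5p measured 79014, 114168 and 71306 CPM at day 4 and 128239, 137586 and 192958 CPM at day 10, without overlap (log2 0.79, SE 0.53, edgeR adjusted p = 0.356). The median of the list in hNSC rats was 1.27, the value of miR-486, which had 3 to 14 unique molecules in each control library. There miR-451-5p had a log2 fold change of 2.80 (SE 0.86, edgeR adjusted p = 0.237). By contrast miR-92a-3p, without overlap in control rats, was at -0.08 in hNSC rats (SE 0.46, edgeR adjusted p = 0.974).

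**Figure D5:**
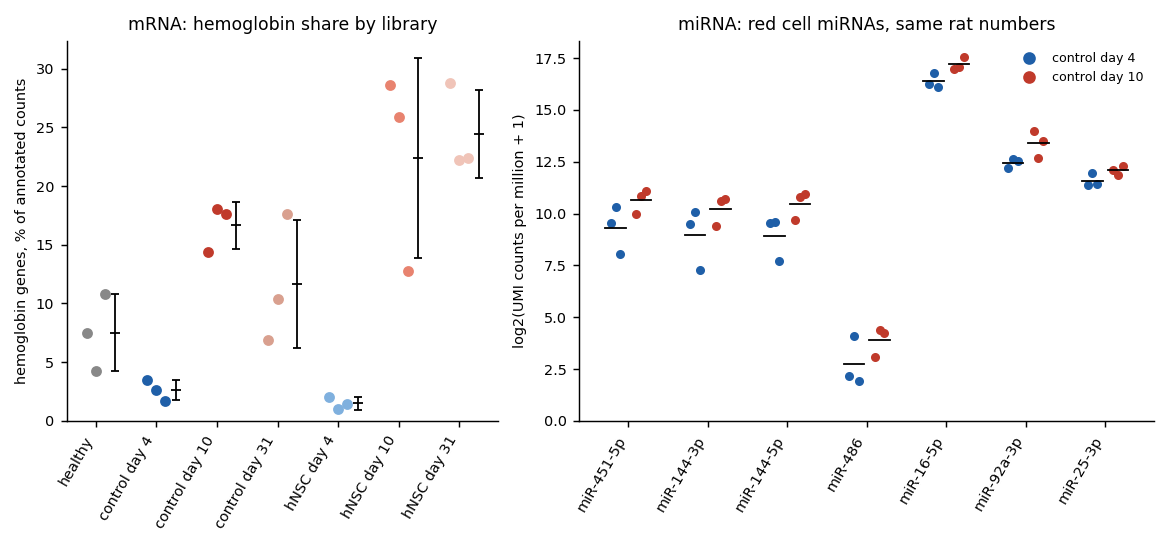
Left, the hemoglobin genes' percent of annotated mRNA counts in each of the 21 plasma libraries by group (points) with the mean ± SD of 3 (bars); right, log2(CPM + 1), in unique molecules, of 7 red cell miRNAs in the control rats of day 4 (blue) and day 10 (red), with lines at the means. The day 10 share, 14.4 to 18.0%, lies apart from 1.73 to 3.45% at day 4, while the miRNA points of the days overlap for 4 of 7.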

How the data were processed

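The members and gene lists were chosen with earlier results of these data known. Per the labels and the study's methods, RNA of plasma EVs (size exclusion; miRNeasy) was made into SMARTer stranded total RNA libraries without molecular identifiers and QIAseq miRNA libraries with them. The authors aligned long reads to Rnor_6.0 with Bowtie2 and assembled with StringTie. The deposited tables hold raw counts and FPKM values per gene for mRNA and counts of unique molecules for miRNA; the counting tool and its strand setting are not given in the sources used here, so overlapping and antisense genes may share reads.

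Of 26637 rows, 18782 annotated genes were kept and 7855 assembled ones left out. edgeR 4.0.16 (R 4.3.3; filterByExpr, TMM, quasi-likelihood) was fitted once to the 21 plasma mRNA libraries in 7 groups, with the contrast day 10 minus day 4 and Benjamini-Hochberg adjustment over 14720 genes; a call needs an adjusted p under 0.05 and a fold over 1.5. The 21 libraries held 11878367 to 49824782 counts. Brain mRNA and plasma miRNA were fitted alike. The scripts were tested on simulated counts. SE is the log2 fold change divided by the root of F. The floor for a group at 0 is 3 counts over its libraries. limma 3.58.1 (log2 FPKM with a pseudocount of 1 or 0.1) and DESeq2 1.42.0 served as alternatives, with those in the closing section. Named genes were the largest called changes, the 10 highest by FPKM, up to 4 members per list with the smallest adjusted p and defining markers; the other called genes and list members named were chosen after their values were seen, and some genes that the rule names are not reported here. RefSeq regions and miRNA sequences are of GRCr8, whose coordinates do not apply to Rnor_6.0. Replicate numbers of the days are different rats, and their deviations did not move together (correlations -0.012, -0.041 and -0.039).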

Additional observations from a re-analysis of the deposited data

Results flagged for a closer look

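Tpx2, a factor of spindle assembly, was set apart because its change from day 4 to day 10 differed between control and hNSC rats in the test of the difference itself. In control rats Tpx2 measured 12.7, 13.7 and 4.50 CPM at day 4 and 25.6, 34.3 and 19.0 CPM at day 10. In hNSC rats it was at 0 CPM in the 3 rats of day 4 and at 113, 83.1 and 39.0 CPM at day 10. That was at least 1447-fold higher, a limit that allows for counting error only. Both sets of rats were thus higher at day 10, and the hNSC rats began from no count. The control change was a log2 fold change of 1.35 (SE 0.71, edgeR adjusted p = 0.591), and the control change minus the hNSC change was -12.36 on the log2 scale (SE 1.42, edgeR adjusted p = 0.00119), a fitted value that depends on the prior count because 1 group is at 0.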

How the results depend on the processing

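DESeq2 called 554 genes higher and 948 lower in place of 54 and 3; it shared all 54 and all 3, and 84.5% of its calls had 1 day at 0 in every library. It also gave 635 genes in hNSC rats, 1128 for the difference between the sets of rats, 93 in brain EVs and 25 miRNAs. A fit of the 6 libraries alone gave 34 higher and 0 lower. limma on FPKM called 39 and 41 of the 54, with 18 lower (pseudocount 1) and 15 (0.1), and the fits without TMM and without the filter 5 each. Leaving out 1 rat at a time gave 38 to 51 genes higher and 3 to 13 lower (13 without rat 4). It gave 0 to 2 miRNAs (2 without rat 5). In every such fit 36 of the 57 called genes remained called. The alternatives counted for single genes kept 27 calls wherever the gene was tested, among them Alas2, Fech, Hba2, Hbb, Kel, Klf1 and Trim10. The fits without the filter, with the assembled genes kept and with a pseudocount of 0.1 were not in that count. Higher calls were 94.7% of all calls, against 36.9% in DESeq2, 76.3 and 78.6% in limma and 75.0% without rat 4. The hemoglobin difference of 14.1 points was 7.18 of all counts, 26.3 of summed FPKM and 13.4 to 15.2 with 1 rat left out. No called gene reversed in the fits counted for single genes. Of uncalled genes, the log2 fold change of Alb (0.10) was -0.19 without TMM, -0.12 with the replicate block, and -0.78 (without rat 5) to 0.85 with 1 rat left out, with -0.49 without rat 2; that of Cd3e was 0.00 (without rat 6) to 9.46 and that of Cd79a (-0.29) was -0.79 to 0.31 (without rat 2). The liver secretory median was 0.49 without rat 3. Without TMM the median of all genes was -0.42 and that of interferon response genes 0.27. In limma with a pseudocount of 1 the medians of hemoglobin, membrane and regulator genes were 2.69, 1.62 and 1.70. Those of heme and iron and of mitosis genes were 0.75 and 0.42 there, against -0.35 for all genes it tested. The causes of these moves were not tested.

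With the replicate block, 47 genes were higher and 3 lower, 45 and 3 of them shared with the fit without it; the numbers do not pair rats. There were 3 rats per day and the common dispersion was 2.21; Cd3e and Prf1 were not called at this depth.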

Other observations

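The 5 miRNAs with the smallest p in plasma EVs of control rats were not red cell miRNAs. miR-10b-5p and miR-10a-5p, encoded in the Hox gene clusters, were at means of 9347 and 9383 CPM at day 4 and 2867 and 2879 CPM at day 10 (log2 -1.71 and -1.70, SE 0.45 for both, edgeR adjusted p = 0.0701). The 2 sequences are nearly alike, so their reads may be split between them. miR-488-3p had a log2 fold change of 3.79 (SE 0.86) and miR-137-3p of -3.87 (SE 0.98), both at means under 50 CPM. The leukocyte miR-142-3p measured 18366, 26180 and 24260 CPM at day 4 and 70687, 27536 and 53775 CPM at day 10, without overlap (log2 1.14, SE 0.50, edgeR adjusted p = 0.188), while its other arm miR-142-5p had a log2 fold change of 0.40 (SE 0.59).

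Immediate early genes, which cells switch on within minutes of a stimulus, had a median of -0.98 over 19 tested genes, with 6 lower at an unadjusted p under 0.05 (3.95% of all tested genes), 3 called lower by DESeq2 (6% of all) and 0 called by edgeR, and a median of 0.28 in hNSC rats. S100 and annexin genes had a median of -0.79 over 16 genes. Among these S100a6, a calcium-binding protein of growing cells, measured 470.1, 788 and 487 CPM at day 4 and 145, 94.6 and 147 CPM at day 10 (log2 -2.17, SE 0.59, edgeR adjusted p = 0.184), without overlap, and had a log2 fold change of -0.34 (SE 0.56) in hNSC rats.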
